A study of Mus musculus with 8 samples.

Results

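Monocytes and macrophages make, and are attracted by, a set of CC chemokines. The 10 genes described here are CC chemokines of these cells (Ccl2, Ccl3, Ccl4, Ccl6, Ccl7, Ccl8, Ccl9 and Ccl12) with the receptors Ccr1 and Ccr2. They were chosen by name, with earlier results of these data known, and the array measures other macrophage chemokines too. They are 10 of the 21335 genes named on the array. Each is read by 1 probe set. The arrays measured RNA of tail tumors that arise in TAX-LUC mice, which carry the HTLV-1 Tax oncogene under the granzyme B promoter and a luciferase reporter under the viral long terminal repeat. Both genotypes carried TAX and LUC, and the IL-15-/- mice lacked the cytokine interleukin 15 in every tissue. They were bred by crossing IL-15-/- C57BL/6 animals to the TAX-LUC line, which was of mixed C57BL/6 and FVB origin. Tumor cells were stained with an antibody to CD16/32, the low-affinity Fc receptors of myeloid and natural killer cells, after an Fc block, and sorted into CD16/32HI and CD16/32LO cells, and 1 array was made of each population of each mouse. There were 2 CD16/32HI arrays and 2 CD16/32LO arrays of IL-15-/- mice, and as many of IL-15+/+ mice. Mice are numbered by the replicate number of their labels. The age was 14 months for mouse 1 and 12 months for mouse 2 of each genotype.

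A CC chemokine is a small secreted protein that attracts leukocytes through G protein-coupled receptors. Ccr2 carries monocytes out of the bone marrow and into inflamed tissue and tumors, and its ligands in the mouse include Ccl2, Ccl7 and Ccl12. Ccr1 is found on monocytes and neutrophils and is a receptor for Ccl3, Ccl7 and the rodent ligands Ccl6 and Ccl9, while mouse Ccl8 acts through Ccr8. The 8 ligand genes lie on chromosome 11 in RefSeq's annotation. Ccl2, Ccl7, Ccl12 and Ccl8 follow each other with 1 other protein-coding gene among them, then 27 others, and then Ccl9, Ccl6, Ccl3 and Ccl4 side by side. Ccr1 and Ccr2 lie on chromosome 9 with 2 other genes between them.

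Promoter sequences were found in RefSeq's GRCm38.p6 table for 7 of the 10 genes, and 4 are shown, those of the 3 ligands whose signals differed most between the populations in 3 of the mice and that of Ccl9, which alone held the NF-kB and AP-1 motifs. Each is the 250 bases before the annotated start, read 5′ to 3′ along the gene's own strand, with motif matches in capitals. They lie at chr11:82101595-82101844 (plus strand) for Ccl12, chr11:82114935-82115184 (plus strand) for Ccl8, chr11:83649379-83649628 (minus strand) for Ccl3 and chr11:83578637-83578886 (minus strand) for Ccl9.
Ccl12: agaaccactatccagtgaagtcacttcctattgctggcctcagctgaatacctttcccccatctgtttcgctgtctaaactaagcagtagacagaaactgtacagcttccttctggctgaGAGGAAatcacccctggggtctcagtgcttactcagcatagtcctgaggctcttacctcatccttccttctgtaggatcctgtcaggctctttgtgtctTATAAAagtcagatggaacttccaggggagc
Ccl8: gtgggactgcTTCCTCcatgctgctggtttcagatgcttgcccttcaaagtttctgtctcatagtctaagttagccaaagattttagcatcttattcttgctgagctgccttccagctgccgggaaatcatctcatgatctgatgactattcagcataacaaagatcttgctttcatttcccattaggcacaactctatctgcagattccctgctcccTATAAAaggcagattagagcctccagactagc
Ccl3: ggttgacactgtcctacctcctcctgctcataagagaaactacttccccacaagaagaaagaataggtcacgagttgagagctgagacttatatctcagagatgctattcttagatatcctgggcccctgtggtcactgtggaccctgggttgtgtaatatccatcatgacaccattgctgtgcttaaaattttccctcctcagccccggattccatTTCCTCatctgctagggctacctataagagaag
Ccl9: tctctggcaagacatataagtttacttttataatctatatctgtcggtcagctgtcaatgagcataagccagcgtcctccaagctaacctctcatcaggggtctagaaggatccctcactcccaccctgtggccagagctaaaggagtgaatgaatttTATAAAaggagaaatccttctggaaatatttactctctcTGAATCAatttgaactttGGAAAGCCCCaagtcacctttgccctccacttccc
In Ccl12 the capitals mark the PU.1 core (GAGGAA, both strands searched), which begins 130 bases before the start, and a TATA box (TATAAA, forward strand only) 31 bases before it. PU.1 is a transcription factor of myeloid cells. In Ccl8 they mark the same motifs, the PU.1 core on the opposite strand at 240 bases and the TATA box at 32 bases, and in Ccl3 the PU.1 core on the opposite strand at 33 bases. In Ccl9 they mark a TATA box at 92 bases, AP-1 (TGANTCA) at 53 bases and the NF-kB consensus at 35 bases. The PU.1 core was found in 4 of the 7 promoters, with Ccr1 the other, against 23.3% of all 32851 promoters, and the TATA box in 3 of 7 against 7.59%. AP-1 was found in 1 of 7 (6.75% of all promoters) and the NF-kB consensus in 1 of 7 (3.9%). The interferon-stimulated response element (GAAA repeated after any 2 bases, 2.98% of all promoters) and the C/EBP motif (TTGCNNAA, 9.56%) had no match in these windows. A match says only that the letters are there.

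The values are log2 signals normalized by the authors, so that 1 unit is a doubling, and array medians lay between 5.62 and 5.93. Some arrays shared 11 to 106 exactly equal values and others shared 0, and those that shared such values were taken to be normalized together. This inference from the values split the arrays into 3 normalization sets. They are the 4 arrays of replicate 1, the IL-15-/- arrays of replicate 2 and the IL-15+/+ arrays of replicate 2. Within 1 set the genotypes can therefore be compared only in replicate 1, whereas the populations of each mouse are in the same set. The probe set of the targeted gene Il15 read 6.31 and 5.22 in CD16/32HI cells of IL-15-/- mice and 5.40 and 5.18 in those of IL-15+/+ mice, and 5.45 and 6.54 (IL-15-/-) against 6.42 and 6.88 (IL-15+/+) in CD16/32LO cells. Only some of its probes lie in the deleted exons, so it does not check the labels. The female transcript Xist was at 10.08 to 10.75 in the IL-15-/- arrays and at 3.92 to 4.64 in the IL-15+/+ arrays, so sex and genotype cannot be told apart.

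The populations were checked against markers. The tissue labels call the CD16/32HI cells malignant large granular lymphocytes and the CD16/32LO cells infiltrating immune cells, yet of 8 markers of natural killer or large granular lymphocytes 2 and 2 lay above the array median in CD16/32HI cells of IL-15-/- mice and 5 and 3 in those of IL-15+/+ mice, against 2 and 3 (IL-15-/-) and 6 and 7 (IL-15+/+) in CD16/32LO cells. C1qa, a complement component made by macrophages, read 7.68 and 11.43 in CD16/32HI cells of IL-15-/- mice and 10.65 and 10.10 in those of IL-15+/+ mice, with 10.73 and 8.16 (IL-15-/-) and 8.06 and 7.94 (IL-15+/+) in CD16/32LO cells. Csf3r, the granulocyte colony-stimulating factor receptor of neutrophils, read 10.74 and 7.15 (IL-15-/-) and 7.46 and 7.38 (IL-15+/+) in CD16/32HI cells and 7.32 and 10.41 (IL-15-/-) and 10.37 and 10.42 (IL-15+/+) in CD16/32LO cells. In 3 mice the CD16/32HI array was thus the one with the higher C1qa and the lower Csf3r, and in IL-15-/- mouse 1 it was the reverse. The arrays of that mouse run against their labels. The labels were kept, and each comparison is given with and without that mouse, a choice made with the pattern known.

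Ccr2 parted the populations in 3 of the 4 mice. It read 8.87 and 11.57 in CD16/32HI cells of IL-15-/- mice and 11.66 and 11.57 in those of IL-15+/+ mice, against 11.75 and 9.13 (IL-15-/-) and 9.68 and 9.43 (IL-15+/+) in CD16/32LO cells. Apart from IL-15-/- mouse 1, every CD16/32HI array was above every CD16/32LO array, and in that mouse the array labelled CD16/32LO held the highest Ccr2 signal of all 8. Its ligand Ccl12 read 7.22 and 11.32 (IL-15-/-) and 10.82 and 9.79 (IL-15+/+) in CD16/32HI cells, against 10.37 and 8.37 (IL-15-/-) and 7.21 and 7.05 (IL-15+/+) in CD16/32LO cells. It followed the same order, and the CD16/32HI array of IL-15-/- mouse 1 fell among the low CD16/32LO arrays.

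The other ligands of Ccr2 spread less. Ccl2, the classical monocyte attractant, read 7.28 and 8.66 (IL-15-/-) and 8.47 and 6.50 (IL-15+/+) in CD16/32HI cells, against 8.08 and 8.06 (IL-15-/-) and 7.09 and 6.92 (IL-15+/+) in CD16/32LO cells. Ccl7 read 6.16 and 7.41 (IL-15-/-) and 7.06 and 6.67 (IL-15+/+) in CD16/32HI cells, against 6.68 and 6.92 (IL-15-/-) and 6.39 and 5.73 (IL-15+/+) in CD16/32LO cells. For both genes the CD16/32HI arrays overlapped the CD16/32LO arrays in range.

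Ccl8 had the pattern of Ccl12 in 3 mice and was at 6.35 or less in both arrays of IL-15-/- mouse 1. It read 4.77 and 8.24 (IL-15-/-) and 9.28 and 8.04 (IL-15+/+) in CD16/32HI cells, against 6.35 and 5.12 (IL-15-/-) and 6.08 and 5.84 (IL-15+/+) in CD16/32LO cells. In IL-15-/- mouse 1 the array labelled CD16/32LO, whose C1qa was 10.73, held Ccl12, Ccr2 and Ccl9 among the high arrays and Ccl8 at 6.35, below all 3 CD16/32HI arrays of the other mice.

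Among the ligands of Ccr1, Ccl9 went with Ccr2 and Ccl3 went the other way. Ccl9 read 7.58 and 8.94 (IL-15-/-) and 9.55 and 8.61 (IL-15+/+) in CD16/32HI cells, against 9.56 and 7.02 (IL-15-/-) and 7.39 and 7.63 (IL-15+/+) in CD16/32LO cells. Ccl3, the macrophage inflammatory protein that neutrophils and lymphocytes also make, read 11.62 and 9.49 (IL-15-/-) and 8.23 and 7.08 (IL-15+/+) in CD16/32HI cells, against 9.12 and 10.77 (IL-15-/-) and 10.15 and 9.52 (IL-15+/+) in CD16/32LO cells. The lowest Ccl3 signals were thus those of CD16/32HI cells of IL-15+/+ mice, and the highest was that of the array labelled CD16/32HI in IL-15-/- mouse 1, the one with Csf3r at 10.74.

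Ccl4, the neighbour of Ccl3 on the chromosome and its close relative in sequence, read 7.93 and 7.77 (IL-15-/-) and 6.81 and 6.30 (IL-15+/+) in CD16/32HI cells, against 6.45 and 7.53 (IL-15-/-) and 7.60 and 6.85 (IL-15+/+) in CD16/32LO cells. Ccl6 read 10.54 and 9.69 (IL-15-/-) and 10.10 and 10.08 (IL-15+/+) in CD16/32HI cells, against 10.42 and 9.86 (IL-15-/-) and 10.25 and 11.85 (IL-15+/+) in CD16/32LO cells. Ccl6 stayed between 9.69 and 10.54 in 7 arrays, and only the IL-15+/+ mouse 2 array of CD16/32LO cells lay higher.

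Ccr1 varied least of the 10 genes, with a range of 0.95 over the 8 arrays. It read 10.25 and 10.37 (IL-15-/-) and 9.76 and 9.62 (IL-15+/+) in CD16/32HI cells, against 9.70 and 10.57 (IL-15-/-) and 9.75 and 9.69 (IL-15+/+) in CD16/32LO cells. Unlike Ccr2, it did not part the populations in any direction shared by the mice. The widest range was that of Ccl3 (4.54), followed by Ccl8 (4.51) and Ccl12 (4.27).

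**Figure D1:**
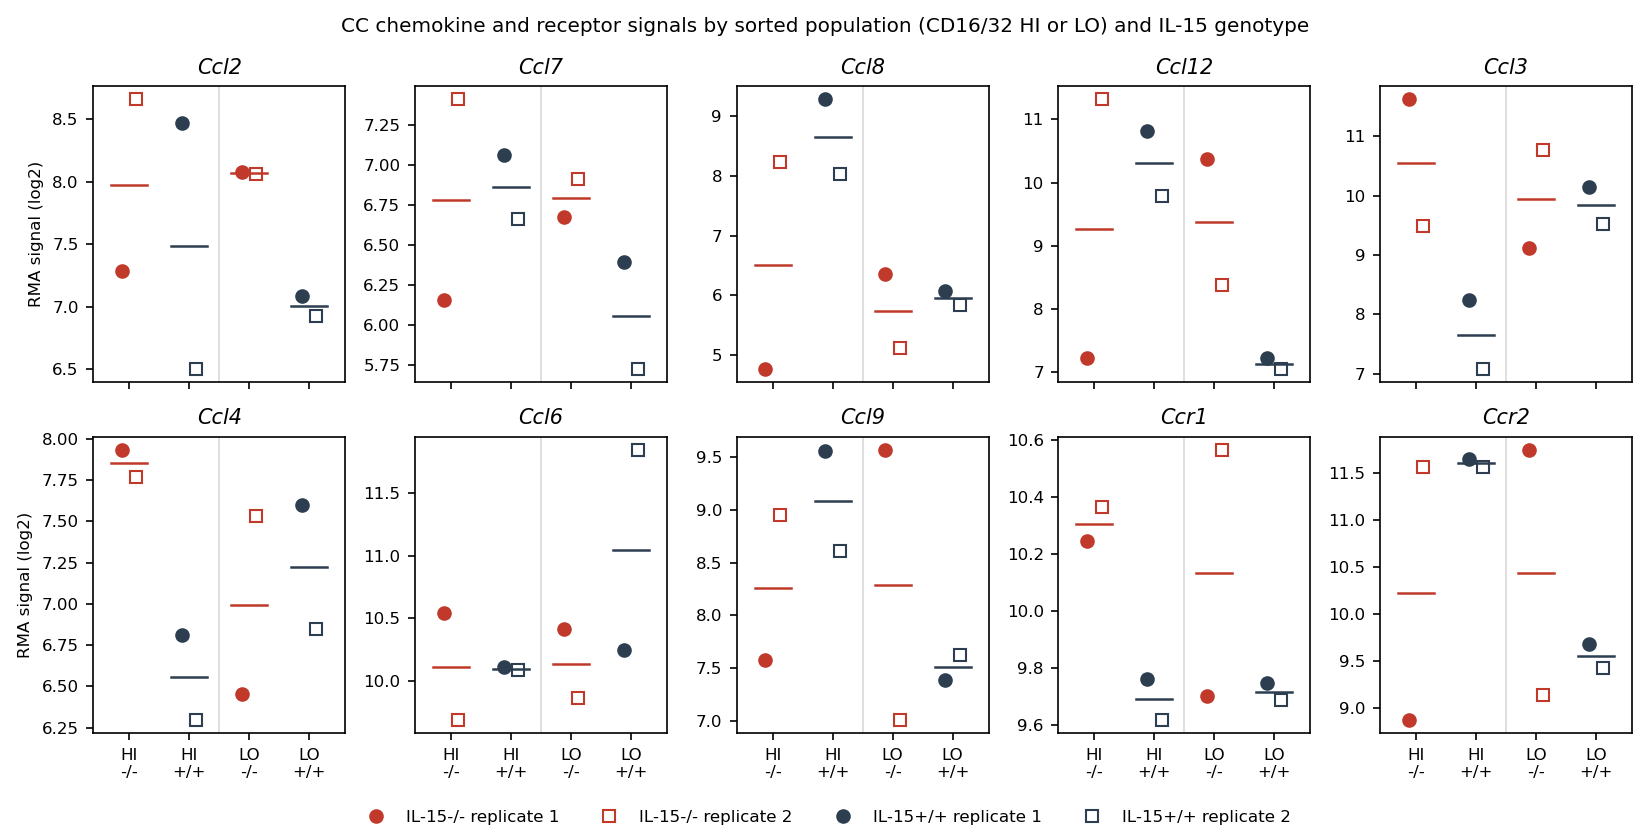
Log2 RMA signal (vertical axes) of each of the 10 genes in the 8 arrays, by population and genotype (horizontal axes), with filled circles for replicate 1 and open squares for replicate 2. Ccr2 lies at 11.57 to 11.75 in 4 arrays and at 8.87 to 9.68 in the other 4, whereas Ccr1 stays between 9.62 and 10.57.

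The order of the group means differed among the 10 genes, and most neighbours in it overlapped. CD16/32HI cells of IL-15+/+ mice had the highest mean for Ccr2 (11.61 ± 0.06), Ccl12 (10.31 ± 0.73), Ccl8 (8.66 ± 0.88), Ccl9 (9.08 ± 0.67) and Ccl7 (6.86 ± 0.28), and the lowest for Ccl3 (7.66 ± 0.82), Ccl4 (6.56 ± 0.36), Ccl6 (10.09 ± 0.01) and Ccr1 (9.69 ± 0.10) (SD, n = 2). CD16/32HI cells of IL-15-/- mice had the highest mean for Ccl3 (10.56 ± 1.50), Ccl4 (7.85 ± 0.11) and Ccr1 (10.31 ± 0.09), and the SD of Ccl12 there was 2.89. In that order 3 pairs of neighbours did not overlap. They were CD16/32HI IL-15-/- over CD16/32LO IL-15+/+ for Ccl4 and for Ccl12, and CD16/32HI IL-15+/+ under CD16/32LO IL-15+/+ for Ccl3. For Ccl12 the gap was between 7.22 in the CD16/32HI array of IL-15-/- mouse 1, which runs against its label, and 7.21. The share of such pairs over all genes was not counted.

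The first comparison asks which population held each transcript. With all 4 mice none of the 10 genes was called between CD16/32HI and CD16/32LO cells (limma with the mouse as a block, Benjamini-Hochberg adjusted p under 0.05). No gene at all was called (0% of 23410), and 276 had an unadjusted p under 0.05 in limma (1.18%). Here and below, counts and shares of all genes are of the probe sets with a symbol, and a gene can have several. Without IL-15-/- mouse 1, 5 of the 10 genes were higher in CD16/32HI cells and 1 was lower. The background there was wide, since 13.7% of all genes were called, 6.36% higher and 7.33% lower. That mouse was left out because its C1qa and Csf3r ran against the labels. Over the 8 arrays the r with C1qa was 0.98 for Ccl12, 0.96 for Ccr2 and 0.91 for Ccl9. It was 0.82 for Ccl8, 0.76 for Ccl7 and -0.65 for Ccl3. The directions and p-values below are therefore not independent of that choice. Ccl12 was 3.10 higher on the log2 scale (8.57-fold, SE 0.183, adjusted p = 3.626e-05 from limma) and Ccl8 was 2.84 higher (7.15-fold, SE 0.203, adjusted p = 7.704e-05). Ccr2 was 2.18 higher (4.54-fold, SE 0.150, adjusted p = 6.417e-05), Ccl9 was 1.69 higher (SE 0.218, adjusted p = 0.00123) and Ccl7 was 0.70 higher (SE 0.148, adjusted p = 0.0141). Ccl3 was lower in CD16/32HI cells, with a log2 difference of -1.88 (3.68-fold, SE 0.209, adjusted p = 0.000608).

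The other 4 genes did not pass. The differences were -0.69 for Ccl6 (95% interval -1.35 to -0.04, adjusted p = 0.167), 0.52 for Ccl2 (-0.12 to 1.16, adjusted p = 0.295), -0.36 for Ccl4 (-0.82 to 0.09, adjusted p = 0.300) and -0.08 for Ccr1 (-0.40 to 0.23, adjusted p = 0.768), from limma. The 2 arrays of a mouse come from 1 tumor, so these p-values rest on 3 mice. In these mice the median difference of the 10 genes was 0.61, against 0.03 over all genes tested.

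The differences of the called genes within the single mice describe the calls and are no further result. These genes were called for agreeing in the mice kept, and IL-15-/- mouse 1 was left out for markers that ran the other way. Ccl12 differed by 2.95 in IL-15-/- mouse 2 and by 3.61 and 2.74 in the IL-15+/+ mice, and Ccr2 by 2.44, 1.97 and 2.14. In IL-15-/- mouse 1 the difference was -3.14 for Ccl12, -2.88 for Ccr2, -1.98 for Ccl9 and -1.58 for Ccl8, so that all 4 ran the other way. Ccl3 ran the other way too, at 2.50 against -1.28 in the other IL-15-/- mouse and -1.91 and -2.44 in the IL-15+/+ mice. For Ccl2, the sign differed between the IL-15+/+ mice themselves, at 1.38 and -0.42.

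**Figure D2:**
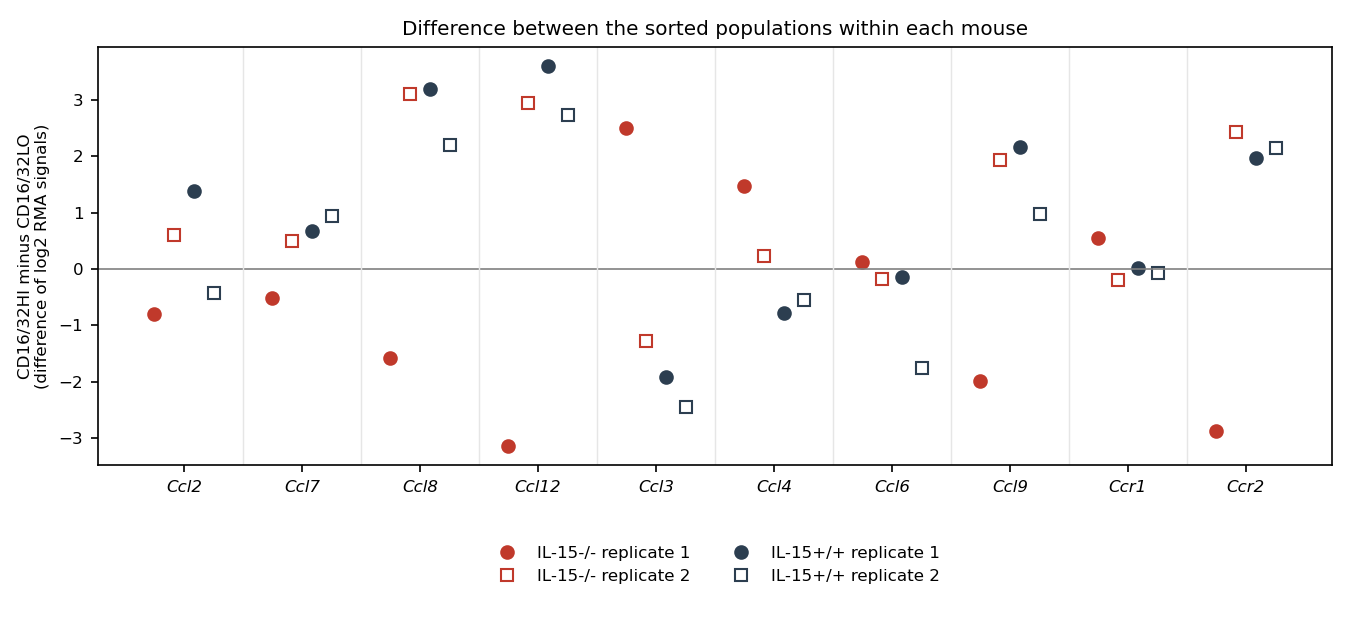
CD16/32HI minus CD16/32LO difference of log2 signals (vertical axis) of the 10 genes (horizontal axis), 1 point for each of the 4 mice. In Ccl12, Ccl8, Ccl9 and Ccr2 the points of 3 mice lie above 0, and the point of IL-15-/- mouse 1 lies at -1.58 to -3.14.

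Cell type markers moved with these genes. IL-15-/- mouse 1 was left out because its C1qa and Csf3r ran the other way. Their shared direction in the other mice followed from that choice. Without IL-15-/- mouse 1, C1qa was 2.67 higher (SE 0.203) and the mannose receptor Mrc1 of macrophages 2.70 higher (SE 0.164) in CD16/32HI cells, and 7 of 10 measured macrophage markers were called higher and none lower. Of 9 neutrophil markers all 9 were called lower, with -3.24 for Cxcr2 and -3.07 for Csf3r. Of 6 T cell markers 5 were called lower, with -2.41 for Cd3g, and 1 higher (Cd4, 0.62). Of 8 markers of natural killer or large granular lymphocytes 3 were called lower (Gzma, Gzmb and Nkg7) and none higher, and Klrd1 differed by -0.78 (adjusted p = 0.0926 from limma). Of 4 monocyte markers 2 were called higher (Cx3cr1 and Fcgr1) and 1 lower (Chil3). Called lower were also 2 of 3 B cell markers, 2 of 4 dendritic cell markers and 1 of 3 eosinophil or mast cell markers (Siglecf, -2.73), and of 5 epithelial or stromal markers none was called. Over all 8 arrays the mean signal of the macrophage markers was 7.67 and 9.44 (IL-15-/-) and 9.39 and 8.96 (IL-15+/+) in CD16/32HI cells, and 9.31 and 7.83 (IL-15-/-) and 7.84 and 7.63 (IL-15+/+) in CD16/32LO cells. That of the neutrophil markers was 10.76 and 7.79 (IL-15-/-) and 7.89 and 7.68 (IL-15+/+) in CD16/32HI cells, and 8.26 and 10.49 (IL-15-/-) and 9.85 and 10.38 (IL-15+/+) in CD16/32LO cells. Their part in the results was not tested, and fewer cells of a type and less RNA per cell cannot be told apart in sorted pools.

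Set against C1qa array by array, Ccr2, Ccl12, Ccl9 and Ccl8 were at their 4 highest in the 4 arrays with C1qa at 10.10 to 11.43. For Ccl8 the array labelled CD16/32LO with C1qa at 10.73 was the lowest of these, at 6.35, close to the 6.08 of a CD16/32LO array of an IL-15+/+ mouse. Ccl3 at 9.12 and 9.49 in the IL-15-/- arrays with C1qa at 10.73 and 11.43 lay below every array with C1qa at 7.68 to 8.16 and above the other arrays with high C1qa, which were of IL-15+/+ mice.

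**Figure D3:**
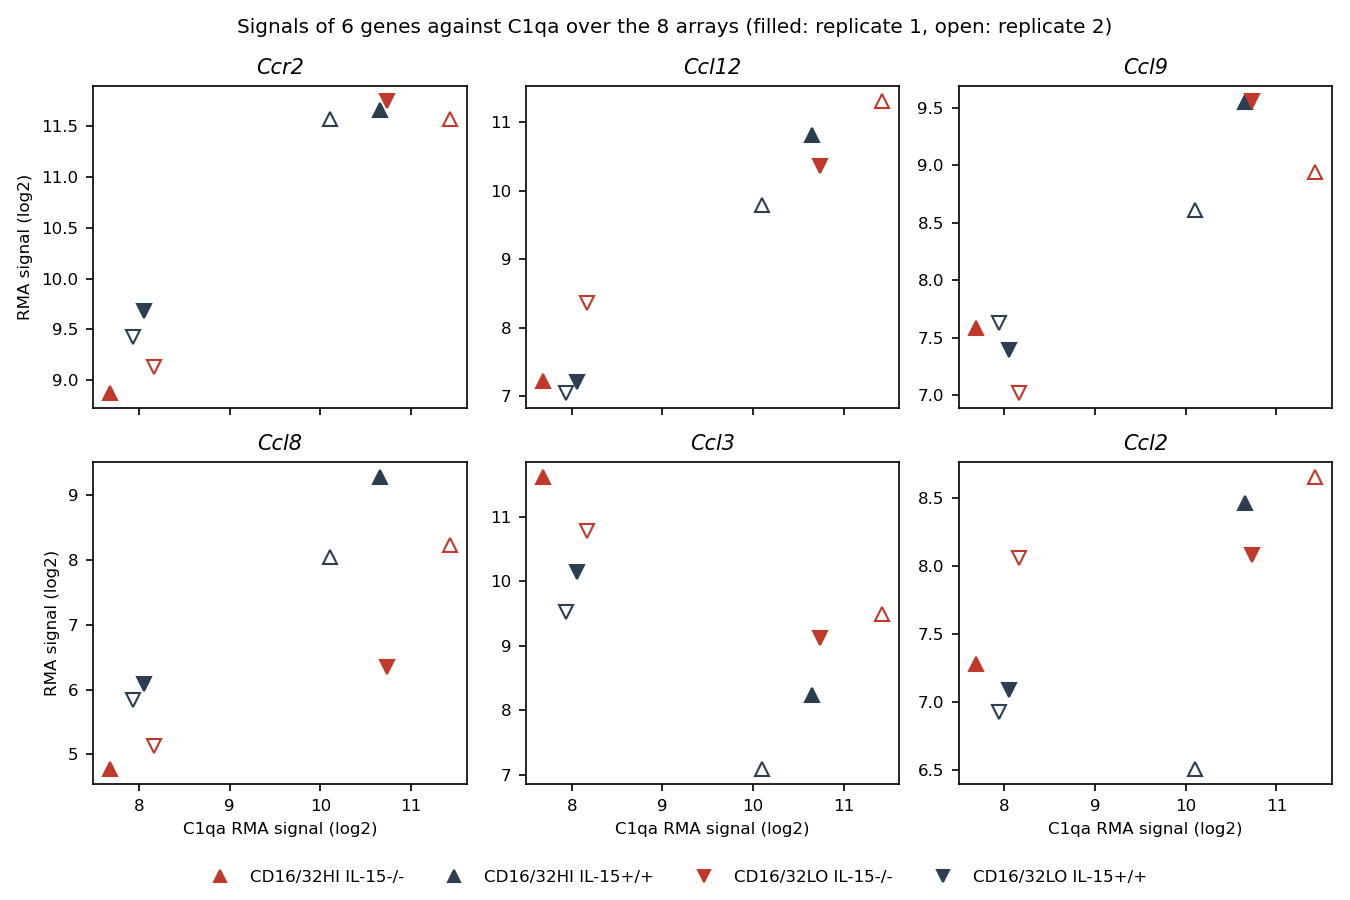
Log2 RMA signal of 6 of the genes (vertical axes) against that of C1qa (horizontal axes), 1 point an array, filled for replicate 1 and open for replicate 2, with the groups by marker and colour. Ccr2 and Ccl12 are high where C1qa is at 10.10 or more, and Ccl3 is lowest there, at 7.08 and 8.23 in CD16/32HI cells of IL-15+/+ mice.

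In all arrays genotype goes with sex, so neither population shows the loss of IL-15 alone. The second comparison sets IL-15-/- against IL-15+/+ mice in CD16/32HI cells. None of the 10 genes passed the test there, with or without IL-15-/- mouse 1. In all, 5 of 23410 genes were called (0.0214%, limma on all 8 arrays), and 1153 had an unadjusted p under 0.05 (4.93%), among them 2 of the 10. The arrays differed in their medians, and the median change over all genes was 0.09 here and 0.13 in the CD16/32LO comparison. Ccl3 was 2.90 higher on the log2 scale in IL-15-/- mice (7.46-fold, 95% interval 1.19 to 4.61, SE 0.749, adjusted p = 0.848), and its difference was 3.38 in replicate 1, where both arrays are in 1 normalization set, and 2.41 in replicate 2. Ccl4 differed by 1.29 (SE 0.398, adjusted p = 0.848), with 1.12 in replicate 1 and 1.47 in replicate 2. Ccr1 differed by 0.62 (SE 0.295), with 0.49 in replicate 1 and 0.75 in replicate 2.

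For these 3 genes both IL-15-/- arrays lay above both IL-15+/+ arrays, as they did for 23.4% of all genes. For 1 gene, Ccr2, both lay below (11% of all genes), with a difference of -0.0011 in replicate 2. Over 3-fold in means were Ccl3 upward (0.265% of all genes) and Ccl8 downward (0.0726%). Ccl8 differed by -2.16 (SE 0.958, adjusted p = 0.848 from limma), with -4.51 in replicate 1 and 0.20 in replicate 2. The 2 replicates also opposed each other in Ccl12, with -3.59 and 1.53, Ccl9, with -1.97 and 0.33, Ccl2, with -1.19 and 2.16, Ccl7, with -0.90 and 0.74, and Ccl6, with 0.43 and -0.40. The fitted change was 0.02 for Ccl6 (-0.12 with each array centred and -0.20 after quantile normalization) and 0.48 for Ccl2 (-0.39 with the normalization set as a block). It was -0.08 for Ccl7, -0.82 for Ccl9, -1.03 for Ccl12 and -1.39 for Ccr2, and the median over the 10 genes was -0.03.

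Without IL-15-/- mouse 1 that genotype was left with 1 array, assumed to vary like the other groups, and Ccl3 differed by 1.84 (SE 0.481, adjusted p = 0.879) and Ccl4 by 1.21 (SE 0.397, adjusted p = 0.899), from limma, with 0.0342% of all genes called. Ccr1 differed by 0.68, and Ccl8, Ccl9 and Ccr2 by -0.43, -0.14 and -0.05. Ccl12 differed by 1.01, whereas with all arrays the value was -1.03. Ccl2 was at 1.17 and Ccl7 at 0.55 without that mouse, and Ccl6 at -0.41. With all arrays neutrophil markers moved with Ccl3. The median difference of the 9 was 1.74 with all arrays and 0.02 without that mouse (5 positive, 4 negative). That of the 10 macrophage markers was -0.70 with all arrays and 0.28 without it. In replicate 2, across different normalization sets, the neutrophil markers were mixed, from -1.18 for S100a8 to 2.19 for Mmp9, with -0.23 for Csf3r and 0.74 for Cxcr2. Their part in the Ccl3 and Ccl4 values was not tested.

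In CD16/32LO cells none of the 10 genes passed either, where 8 genes were called in all (0.0342%, limma) and 453 had an unadjusted p under 0.05 (1.94%), with 0 of the 10 among them. Both IL-15-/- arrays lay above both IL-15+/+ arrays for 3 of the 10 genes (Ccl2, Ccl7 and Ccl12), against 23.8% of all genes. For 0 of the 10 did both lie below (4.81% of all genes). Ccl12 differed by 2.24 (4.72-fold, 95% interval -0.37 to 4.84, SE 1.14), which is over 3-fold (0.12% of all genes), with 3.15 in replicate 1 and 1.32 in replicate 2. Ccl2 differed by 1.07 (SE 0.614), with 0.997 in replicate 1 and 1.14 in replicate 2, and Ccl7 by 0.74 (SE 0.412), with 0.28 and 1.19. Each had an adjusted p of 0.9998 from limma, and the median over the 10 genes was 0.58.

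The CD16/32LO-labelled array of IL-15-/- mouse 1 had C1qa 2.68 above its IL-15+/+ counterpart, and in replicate 2 C1qa was 0.23 higher in the IL-15-/- array. With all arrays the median difference was 0.90 for the macrophage markers, -0.82 for the neutrophil markers, -1.96 for the markers of natural killer or large granular lymphocytes (8 of 8 negative, Gzma called) and -2.05 for the T cell markers (5 of 6 negative, Cd8b1 called). In the same order the medians were 0.17, 0.21, -1.87 and -1.66 without that mouse. The part of these markers in the results was not tested. Without that mouse Ccl12 differed by 1.24 (SE 0.423), Ccl2 by 1.06 (SE 0.639), Ccl7 by 0.86 (SE 0.373) and Ccr1 by 0.85 (SE 0.303), each with an adjusted p of 0.9999 from limma, with 0.0854% of all genes called. Ccr2, at 0.88 with all arrays, was -0.42 without it, and Ccl9, at 0.78, was -0.50. Ccr1 was at 0.42 with all arrays. Ccl3 was at 0.11 (-0.0058 with each array centred, -0.042 after quantile normalization and -0.21 with the normalization set as a block) and 0.94, Ccl4 at -0.23 and 0.31, Ccl8 at -0.22 and -0.84 and Ccl6 at -0.91 and -1.19, with and without that mouse.

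**Figure D4:**
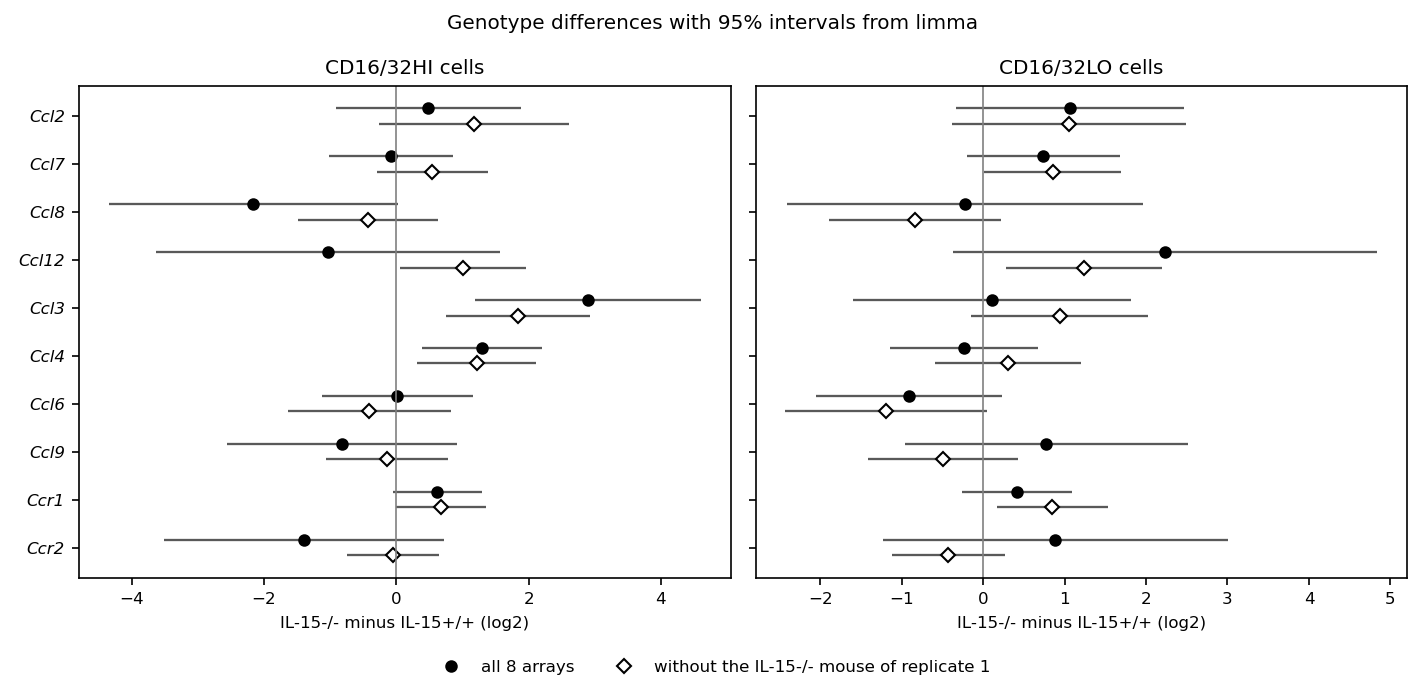
IL-15-/- minus IL-15+/+ difference of log2 signals with 95% limma intervals (horizontal axes) for the 10 genes (vertical axes), in CD16/32HI cells (left) and CD16/32LO cells (right), with all arrays and without IL-15-/- mouse 1. In CD16/32HI cells the Ccl3 value is 2.90 with all arrays and 1.84 without that mouse, and that of Ccl12 changes sign, at -1.03 and 1.01.

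Whether the genotype difference differed between the populations was tested with the mouse as a block. No gene passed with all arrays (0 of 23410 from limma, 639 at an unadjusted p under 0.05, 2.73%), nor without IL-15-/- mouse 1 (0, and 1002 unadjusted, 4.28%). Of the 10 genes with all arrays, Ccl4 alone had an unadjusted p under 0.05, with a difference of 1.53 (SE 0.476, adjusted p = 0.883), and Ccl3 had 2.79 (SE 1.30, adjusted p = 0.883). Without IL-15-/- mouse 1 both genes had an unadjusted p under 0.05, with 0.91 for Ccl4 (SE 0.323, adjusted p = 0.9993) and 0.90 for Ccl3 (SE 0.352, adjusted p = 0.9993), from limma. The difference was -3.27 with and -0.23 without that mouse for Ccl12, and -2.28 and 0.38 for Ccr2. When an array of IL-15-/- mouse 2 was dropped, that genotype rested on the mouse whose arrays run against their labels, and limma called 2680 genes and 7 of the 10, namely Ccl3, Ccl4, Ccl7, Ccl8, Ccl9, Ccl12 and Ccr2.

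Beside the 10 genes, 22 other CC chemokines and receptors were measured. None of the 22 was called with all 4 mice. Without IL-15-/- mouse 1, 1 was higher and 4 were lower in CD16/32HI cells. Ccl17, a Ccr4 ligand made by dendritic cells and alternatively activated macrophages, was 2.17 higher (SE 0.330, adjusted p = 0.00280 from limma). It read 8.11 and 10.26 (IL-15-/-) and 11.81 and 10.47 (IL-15+/+) in CD16/32HI cells, against 10.87 and 7.90 (IL-15-/-) and 8.66 and 9.48 (IL-15+/+) in CD16/32LO cells, and its 4 highest arrays were those of Ccr2. The 4 lower ones were Ccr3, the eosinophil receptor (-1.50, adjusted p = 0.00191), Ccrl2, an atypical receptor that binds chemerin (-1.23, adjusted p = 0.00783), Ccr7, the lymph node homing receptor (-1.15, adjusted p = 0.00136), and Ccl5, made by cytotoxic lymphocytes (-0.91, adjusted p = 0.0332). The macrophage products Ccl22 (-0.79, adjusted p = 0.0750) and Ccl24 (0.81, adjusted p = 0.0516) did not pass in limma.

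Between the genotypes 0 of the 22 passed in either population, and 3 had an unadjusted p under 0.05 in CD16/32HI cells (limma, against 4.93% of all genes). Ccrl2 read 11.10 and 9.76 in IL-15-/- and 8.50 and 8.63 in IL-15+/+ CD16/32HI cells, a difference of 1.86 (SE 0.492, adjusted p = 0.848 from limma). Both its IL-15-/- arrays lay above both IL-15+/+ arrays, as they did for 5 of the 22 (23.4% of all genes). For 3 of the 22 both lay below (11% of all genes). Ccr7 differed by 0.76 and Ccr6, a receptor of lymphocytes and dendritic cells, by -0.67, and Ccl17 by -1.95. Ccl5, Ccl22 and Ccl24 differed by 0.27, 0.23 and 0.46 there. In CD16/32LO cells the differences were -0.61 for Ccl5, 0.31 for Ccl17, -0.38 for Ccl22, 0.79 for Ccl24, -0.28 for Ccr7 and -0.47 for Ccrl2. The median of the 22 was -0.22 there, and it was 0.23 among CD16/32HI cells.

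The genes most alike in pattern were sought among 10898 probe sets with a signal above the median, by Pearson r over the 8 arrays, which come from 4 mice and lie at high and low levels of the macrophage markers. The values are a description of likeness in these arrays. For Ccr2 they were Prr15, Lilra5 and Tmem176b (r = 0.997, 0.997 and 0.996), and for Ccl12 Cenph, Marveld1 and 0610010F05Rik (0.99 each). Ccl8 was most like Rgmb, Snord104 and Zfp599 (0.97, 0.96 and 0.96), and Ccl9 most like Rps18, Prdx4 and Sdf2l1 (0.98 each). Ccl4 was closest to Ppp1r15a (0.97), Zc3h12a (0.96) and Nfkbiz (0.95), and Ccl3 to Eif4ebp1, Ccnk and Dgat1 (0.99 each). The nearest to Ccl2 were Sdhb, Dtymk and Rps2 (0.99 each), and to Ccl7 Ankrd49, Oxa1l and Cbr4 (0.98 each). Ccl6 was nearest to Chn2 (0.96), Taf6l (0.90) and Clec12a (0.90), and Ccr1 to Rab31 (0.98), Lias (0.97) and 4930524J08Rik (0.97).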

How the data were processed

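RNA of sorted tumor cells was hybridised to 8 Affymetrix Whole Transcript 1.0ST arrays. The authors deposited RMA values, on a log2 scale with 1 value per probe set, and the submitters' processing notes name RMA and Affymetrix Expression Console. Of 35557 probe sets, 23410 carried a symbol in GEO's platform annotation and were tested, 1621 of them with several symbols. The genotypes were compared within each population over all 8 arrays in 4 groups, and the populations with the mouse as a block (the populations of a mouse share genotype and replicate number in the labels and a normalization set, and their deviations from the group means had r = -0.45 in IL-15-/- and 0.37 in IL-15+/+ mice), with limma 3.58.1 in R 4.3.3, at a Benjamini-Hochberg adjusted p under 0.05. The fit was tested on simulated data. Python 3.11.15, pandas 2.3.3 and numpy 2.4.6 were used for levels and sequences. The 10 genes and the other lists were chosen with earlier results of these data known. All 10 are named, the 6 measured companions set by name, any companion that passed (Ccr3) and the 3 genes most alike each; Ccr6 was singled out after its value was seen. Alternatives were array centring, quantile normalization, all probe sets, a filter on dim probe sets, the mean of a gene's probe sets, blocks, the 4 arrays of 1 population, the methods' analysis of variance, and leaving out arrays. The precision is limited by 2 arrays a group. The p-values rest on the spread of these few arrays, which limma moderates with that of all genes. In the genotype tests the 2 arrays of a mouse were counted as separate.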

Additional observations from a re-analysis of the deposited data

How the results depend on the processing

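None of the 10 genes was called between the genotypes under any alternative run, and 0 to 6 were called between the populations, all 6 only without an array of IL-15-/- mouse 1. Of the values of the 10 genes and their named companions outside the settings that leave out arrays, 489 kept direction and side of the threshold and 7 changed sign. In CD16/32HI cells Ccl6 was at -0.12 with centring of the arrays and -0.20 after quantile normalization, and Ccl2 was at -0.39 and Ccl5 at -1.21 with the normalization set as a block. In CD16/32LO cells Ccl3 was at -0.0058 with centring, -0.042 with quantile normalization and -0.21 with that block. The cause was not tested. The 5 genes called between genotypes in CD16/32HI cells became 3 with the filter on dim probe sets, 3 with the replicate block, 0 with the set block, 2 with only the 4 arrays of the population and 0 with the methods' analysis of variance. The 8 called in CD16/32LO cells became 2 with the set block and 0 with that analysis of variance, which gave 1108 and 831 genes before adjustment, 2 and 1 of the 10 among them. Same-numbered arrays of the genotypes come from different mice that share an age and, in replicate 1, a normalization set, and no label makes the number a pairing (r of their deviations 0.06 in CD16/32HI and 0.14 in CD16/32LO cells), and the replicate block left 7 genes called in CD16/32LO cells. Pairing CD16/32HI of each IL-15-/- mouse with CD16/32LO of the other, tried after seeing the data because their deviations opposed each other, called 0 genes. Leaving out arrays gave 2 to 8 genes in CD16/32HI and 3 to 20 in CD16/32LO cells, 0 to 3205 between the populations and 0 to 2680, with 0 to 7 of the 10, for the difference between genotypes across populations. Without 1 array or mouse, the values that changed sign ranged as follows. Between genotypes in CD16/32HI cells they were Ccl2 -0.50 to 1.47, Ccl6 -0.41 to 0.44, Ccl7 -0.71 to 0.55, Ccl12 -3.08 to 1.01, Ccl5 -0.80 to 1.35, Ccl22 -0.021 to 0.48 and Ccl24 -0.23 to 1.15. In CD16/32LO cells they were Ccl3 -0.71 to 0.94, Ccl4 -0.77 to 0.31, Ccl8 -0.84 to 0.39, Ccl9 -0.50 to 2.05, Ccr1 -0.014 to 0.85, Ccr2 -0.42 to 2.19, Ccl5 -1.56 to 0.34, Ccl17 -1.18 to 1.80, Ccl22 -0.88 to 0.11, Ccr7 -0.65 to 0.095 and Ccrl2 -1.08 to 0.13. Between the populations they were Ccl2 -0.21 to 0.52, Ccl4 -0.36 to 0.39, Ccr1 -0.084 to 0.16 and Ccrl2 -1.23 to 0.070. For the difference between genotypes across populations they were Ccl2 -1.48 to 0.32, Ccl8 -4.28 to 0.41, Ccl9 -3.55 to 0.36, Ccr1 -0.17 to 0.57, Ccr2 -4.93 to 0.38, Ccl17 -4.83 to 0.30, Ccl22 -0.14 to 1.36 and Ccl24 -1.39 to 0.73. With 2 arrays a group, differences of the size seen here in Ccl12 or Ccl8 between genotypes could not be separated from the spread. In CD16/32HI cells the SD was 2.89 (IL-15-/-) and 0.73 (IL-15+/+) for Ccl12, and 2.45 and 0.88 for Ccl8. The IL-15-/- values include mouse 1, whose arrays run against their labels.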
